A study of Homo sapiens with 32 samples.

Results

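HNF4A is the gene that encodes HNF4α, the protein immunoprecipitated throughout this series, so peaks around it are places where the factor was recovered from chromatin at or near its own gene. Some of them lie at or within neighbouring genes. Members were all peaks whose summit, the base of highest signal, lay within 100 kb of the gene's RefSeq span (GRCh38.p14, chromosome 20, 44355699 to 44434596, plus strand). Of 337294 peaks in 18 lists, 82 met that rule, and merging peaks that overlapped by at least 1 bp gave 20 sites, numbered 1 to 20 along the chromosome. The series is chromatin immunoprecipitation sequencing (ChIP-seq) of 3 human pancreatic ductal adenocarcinoma cell lines, with 1 deposited peak list for each antibody library.

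In Panc10.05, doxycycline was used to induce expression of either the P1-α2 isoform, at 25 ng/mL, or the P2-α8 isoform, at 12.5 ng/mL, so isoform and dose differ together. In BxPC3 the same isoforms were induced at 500 ng/mL. The titles of the BxPC3 P2-α8 libraries write α8 with P1, and their genotype label, which reads P2-a8, was followed. In AsPC1 (written ASPC1 in the labels) CRISPR interference (CRISPRi), a block of transcription that a guide RNA directs to its target, was used. It was aimed at P1 (genotype sgP1, sgP1E in the titles) or P2 (genotype sgP2, sgP2D in the titles), and compared with the genotype sgNC. The titles name 1 guide for each promoter, and the guides' positions were not analysed here. An antibody to HNF4α (PP-H1415, called pan here) was used in all 3 lines, and an antibody to P1 isoforms (PP-K9218) in AsPC1 sgNC and sgP2. Each of these 9 groups has 2 libraries, labelled as replicates with cells collected for each; whether they came from separate cultures is not stated, so p-values measure only the spread between these libraries. The labels name no doxycycline treatment for AsPC1, and each line has its own series of library names, so line, mode of manipulation and library series cannot be told apart.

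HNF4α is a nuclear receptor that binds DNA as a dimer and directs epithelial programmes in liver, intestine and pancreas. Its gene has a pair of promoters: transcripts from P1, the proximal promoter, encode the full amino terminus, and those from P2, the distal one, encode an alternative amino terminus that lacks the activation domain found there. HNF4A-AS1 is a long non-coding RNA transcribed from the opposite strand between P2 and P1. RefSeq lists 14 transcripts of HNF4A from 2 starts, at 44355699 (P2) and 44401239 (P1), 45.54 kb apart.

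Peaks at 3 starts differed in presence between the lines, and the 250 bases before each start are shown for that reason, 5′ to 3′ on the strand of the gene, from RefSeq's promoter table (GRCh38.p14). They are chr20:44355449-44355698 (plus strand) for P2, chr20:44400989-44401238 (plus strand) for P1 and chr20:44395663-44395912 (minus strand) for a start of HNF4A-AS1. Capitals mark motif matches.
HNF4A P2: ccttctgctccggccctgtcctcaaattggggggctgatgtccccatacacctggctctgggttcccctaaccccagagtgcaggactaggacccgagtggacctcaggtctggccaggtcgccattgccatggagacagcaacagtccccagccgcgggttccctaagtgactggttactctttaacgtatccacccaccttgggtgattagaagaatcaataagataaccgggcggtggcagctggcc
HNF4A P1: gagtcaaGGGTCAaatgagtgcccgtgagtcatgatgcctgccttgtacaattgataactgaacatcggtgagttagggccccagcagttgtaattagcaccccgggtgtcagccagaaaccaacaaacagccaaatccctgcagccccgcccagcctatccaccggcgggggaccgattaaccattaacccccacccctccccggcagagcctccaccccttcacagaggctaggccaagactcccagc
HNF4A-AS1: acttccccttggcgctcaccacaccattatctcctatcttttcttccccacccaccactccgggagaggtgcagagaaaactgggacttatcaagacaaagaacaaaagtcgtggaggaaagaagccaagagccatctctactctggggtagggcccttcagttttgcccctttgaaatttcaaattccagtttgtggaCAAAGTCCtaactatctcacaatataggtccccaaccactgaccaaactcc
The stretch before P2 held no match to the motifs searched, which says only that those letters are not in this window. Before P1 a single GGGTCA, a nuclear receptor half-site, began 243 bases before the start. Before HNF4A-AS1 the match is CAAAGTCC, the core of the HNF4-selective motif CAAAGTCCA, which began 51 bases before the start. Both strands of the 250 bases before 34943 RefSeq starts were searched. CAAAGTCC was found in 1.02% of them, GGGTCA in 12.04%, CAAAGTCCA in 0.326%, AGGTCA in 12.1% and the direct repeat of AGGTCA with 1 base between its copies in 0.0172%. Every CAAAGTCCA contains CAAAGTCC, and every direct repeat contains AGGTCA. CAAAGTCC was chosen after these sequences had been seen. The last 3 of the motifs counted above had no match in the 3 stretches printed.

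Of the 20 sites, 6 lay upstream of P2, 4 between P2 and P1 (the site just before P1 included), 3 in the gene body downstream of P1 and 7 beyond the gene's end. Induced lines and AsPC1 shared few of them: 13 sites were found only in Panc10.05 or BxPC3 lists, 4 only in AsPC1 lists and 3 in both. Over the whole genome, with only the 14 pan lists merged, 64.4% of 78074 regions were found only in induced lists, 12.3% only in AsPC1 and 23.3% in both, so little overlap is general to these lists. Inside the gene's span 5 sites were of the induced lines, 2 of AsPC1 and none of both. Of the 7 sites found in AsPC1, 4 lay within 1 kb of a protein-coding start, against 2 of the 16 found in the induced lines. Peaks at such starts were also the larger share of the AsPC1 pan lists as a whole, at 13.8% to 16.3% against 3.93% to 10.4% in the induced lists. The lists were not called alike, since the lowest −log10 q in a list was 8.00 to 8.04 in the induced lines and 2.00 to 2.02 in AsPC1. At −log10 q of at least 8 in every list, 14 sites were found only in induced lists, 3 only in AsPC1 and 2 in both. Beside these stand 74.6%, 6.19% and 19.2% of 73022 regions. The threshold was planned for the comparisons of peak counts, and its use on shared sites was added after seeing the data. Site 11 was lost, and site 3 lost its AsPC1 peaks. At 20 these counts were 13, 1 and 1, beside 83.9%, 2.8% and 13.3% of 58949 regions. AsPC1 then kept sites 6 and 20, and none inside the gene's span. All fold enrichments and p and q values of peaks are the authors' own, and the read depth behind them is not known, so sites are compared between lists by their percentile of fold enrichment within each list (100 is the strongest peak).

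**Figure D1:**
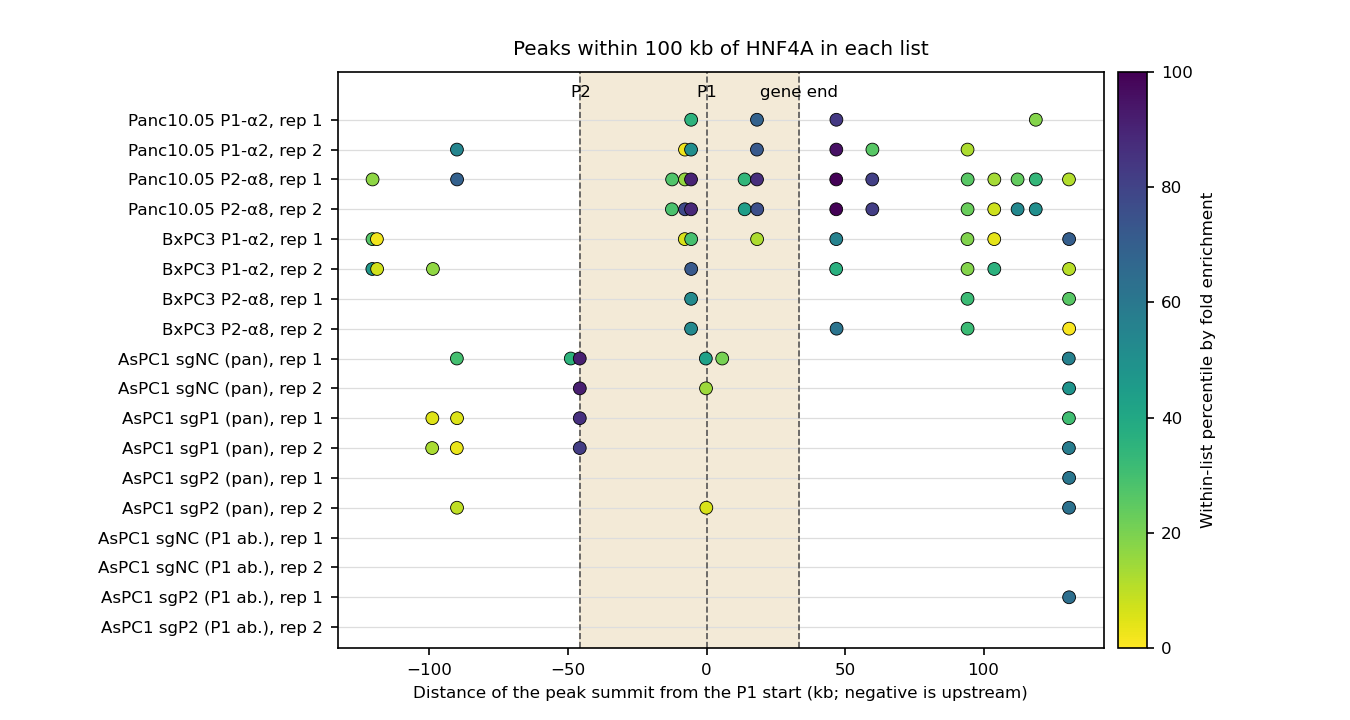
Position of every HNF4A locus peak by distance from the P1 start (x axis, kb) in each of the 18 lists (y axis), with darker points for higher within-list percentiles and dashed lines at P2, P1 and the gene's end. AsPC1 peaks sit at P2 in the sgNC and sgP1 pan lists and at P1 in the sgNC pan lists and sgP2 pan replicate 2. No induced list has a peak at either promoter, but the induced lists start at a higher −log10 q than those of AsPC1. All 8 induced lists have a peak at HNF4A-AS1, 5.52 to 5.58 kb upstream of P1.

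The P2 promoter was the strongest HNF4α site at the locus in the sgNC and sgP1 lists of AsPC1 (site 6, 44354854 to 44356002). Its summits lay 212, 195, 202 and 212 bases before the P2 start in sgNC replicates 1 and 2 and sgP1 replicates 1 and 2, a spread of 17 bp, within the stretch printed for P2. The authors' fold enrichments in those lists were 20.2, 17.4, 14.4 and 12.3, with −log10 q of 117, 84.8, 73.7 and 59.1. In rank it stood 2178 of 24295 and 1289 of 15118 peaks in sgNC and 1970 of 14038 and 2063 of 11686 in sgP1. These 4 lists thus ranked it high, whereas neither sgP2 list, no induced list and no P1-antibody list had a peak there. Peaks at coding starts ranked below the middle of these lists, with median percentiles of 39.9 and 41.3 in sgNC and 44.9 and 43.7 in sgP1. The P2 peak was stronger than 94.0% and 93.6% of the 3969 and 2091 such peaks in sgNC, and than 88.6% and 85.4% of the 2079 and 1760 in sgP1.

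Percentiles at P2 were 91.0 and 91.5 in sgNC and 86.0 and 82.4 in sgP1. Their means were 91.3 ± 0.312 (SD, n = 2) in sgNC and 84.2 ± 2.56 (SD, n = 2) in sgP1. Both sgP1 values were below both sgNC values, a difference of −7.10 (two-sided exact permutation p = 0.33, the smallest that 2 against 2 libraries allow). With the lists cut to equal length it was −2.42 (exact permutation p = 1), and with peaks ranked by −log10 p it was −2.56. Among the 8589 regions in all 4 of these lists, 36.1% had that order and 5.73% the opposite one. Against sgP2, with an absent peak taken as 0, the difference was −91.3 for sgP2 minus sgNC and 84.2 for sgP1 minus sgP2. The exact permutation p was again 0.33 for each. Presence of the peak in these lists was known beforehand and fixed both direction and p, so these values only describe size. The nearest sgP2 peaks to the P2 start had summits at a distance of 145 kb (replicate 1) and 44.5 kb (replicate 2). Of the 28217 merged regions of the 6 AsPC1 pan lists, 267 shared this pattern of presence in both sgNC and both sgP1 lists and absence from both sgP2 lists, or 0.946%. In the reverse pattern, 1.78% of those regions were present in both sgNC and both sgP2 lists and absent from both sgP1 lists, and no HNF4A site showed it.

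The P1 promoter carried a weaker peak in AsPC1 (site 10, 44400731 to 44401585). Percentiles were 43.0 and 14.5 in the sgNC lists and 6.09 in sgP2 replicate 2, with −log10 q of 13.6, 7.30 and 5.17, and the other 3 AsPC1 pan lists had no peak. The 2 sgNC values were therefore far apart, and each was above the sgP1 and sgP2 values. The summits lay 245, 174 and 66 bases before the start, a wider scatter of 179 bp than at P2, and all fell in the stretch printed for P1. With absence taken as 0, sgP1 minus sgNC was −28.8 and sgP2 minus sgNC −25.7 (two-sided exact permutation p = 0.33 for each), and sgP1 minus sgP2 was −3.04 (exact p = 1). Leaving out 1 library moved the former differences between −43.0 and −14.5 and between −40.0 and −11.4, and with lists cut to equal length no list had the peak. In the uncut lists the peak's absence from sgP1 was known beforehand. It fixed the direction of the sgP1 differences, so these only describe size. At −log10 q of at least 8, the value from which the induced lists start, only the peak of sgNC replicate 1 was left at P1 (−9.26 for each of sgP1 and sgP2 against sgNC, exact permutation p = 1), while all 4 peaks at P2 were left even at 20.

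Between sgNC and sgP1 the locus had 7 regions. The P1 site was the 1 region in both sgNC lists and neither sgP1 list, where 8.97% of all 26867 merged regions had that pattern, and site 3, 53.4 kb upstream of P2, was the 1 in both sgP1 lists and neither sgNC list, where 0.409% did. Site 3 was weak, at percentiles 5.08 and 12.6 in sgP1 and below −log10 q of 8 in both lists, and was also found in BxPC3 P1-α2 replicate 2 at 16.8. Between sgNC and sgP2 there were 6 regions, of which the P2 site alone was in both sgNC lists and neither sgP2 list (7.2% of 27043 regions), and none was in both sgP2 lists only (0.407%). Between sgP1 and sgP2, 2 of 5 regions, the P2 site and site 3, were in both sgP1 lists only (2.75% of 20473 regions) and none in both sgP2 lists only (4.32%). These 3 comparisons use the same lists in pairs and are not independent of each other.

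Neither promoter had a peak in any of the 8 lists of the induced lines. Their nearest summits to the P2 start were 33.0 to 40.0 kb away and to the P1 start 5.52 to 5.58 kb away. The latter belong to site 9 (44395152 to 44396255), at the start of HNF4A-AS1, which was the only one of the 20 sites in all 8 induced lists and was in no AsPC1 list. Of 78070 merged regions of the 14 pan lists, 1914 had this pattern, or 2.45%, and the P2 site's pattern of all 4 sgNC and sgP1 lists and no induced list was held by 1286, or 1.65%. The 8 summits spanned 64 bp, and 6 of them fell 2 to 58 bases before the HNF4A-AS1 start used here, in the stretch printed for it, where the CAAAGTCC match lies. The RefSeq span of HNF4A-AS1 reaches 44395706, further upstream than that start. Some of these summits therefore lie within the annotated gene.

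At site 9 the percentiles in Panc10.05 were 35.9 and 51.1 with P1-α2 and 90.5 and 88.8 with P2-α8. Both P2-α8 values were above both P1-α2 values, a difference of −46.2 for P1-α2 minus P2-α8 (two-sided exact permutation p = 0.33). In BxPC3 they were 29.5 and 72.3 with P1-α2 and 52.6 and 53.0 with P2-α8. The P1-α2 values lay on both sides of the P2-α8 values in that line, and the difference was −1.89 (exact p = 1), or 19.5 without P1-α2 replicate 1 and −35.9 with all BxPC3 lists cut to the length of the shortest. All 8 peaks had a −log10 q above 20, and the authors' fold enrichment ran from 8.73 to 25.1. The percentile comparisons at this site were added after the data were seen, so their p-values are not those of planned tests.

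**Figure D2:**
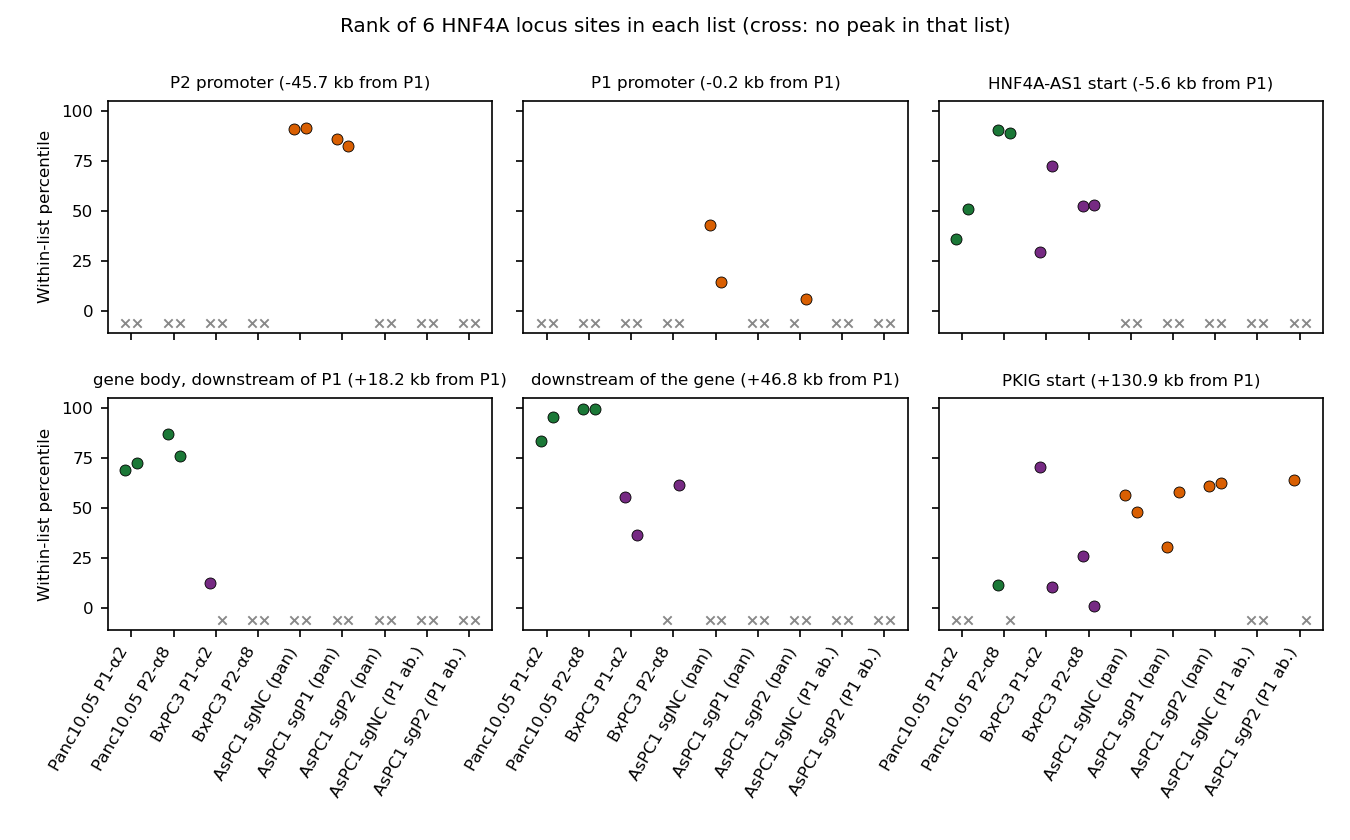
Within-list percentile by fold enrichment (y axis, 100 is the strongest peak) of 6 HNF4A locus sites in the 9 groups (x axis), with 1 point per list and a cross where the list has no peak; pan and P1 ab. name the antibody. The P2 and P1 panels have points in AsPC1 only, and at the HNF4A-AS1 start the Panc10.05 P2-α8 lists, at 90.5 and 88.8, are above the other induced lists.

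A pair of weaker sites lay upstream of site 9, between P2 and P1 and within both HNF4A and HNF4A-AS1. Site 7, 12.5 kb upstream of P1, was found only in Panc10.05 P2-α8, at percentiles 27.3 and 28.6. Site 8, 7.78 kb upstream of P1, was at 16.1 and 78.1 in Panc10.05 P2-α8, at 2.68 in P1-α2 replicate 2 and at 6.15 in BxPC3 P1-α2 replicate 1. The 2 P2-α8 lists of Panc10.05 thus ranked site 8 very differently.

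Downstream of P1 the gene body held 3 sites. Site 13 (44419165 to 44419870), 18.2 kb past P1, was at percentiles 68.9 and 72.5 in Panc10.05 P1-α2, at 86.9 and 76.0 in P2-α8 and at 12.3 in BxPC3 P1-α2 replicate 1. It was in all 4 Panc10.05 lists and was higher with P2-α8, by a difference of −10.8 for P1-α2 minus P2-α8 (two-sided exact permutation p = 0.33). That difference ran from −16.2 to −5.34 without 1 library, and at equal list length the groups overlapped (−7.88, exact permutation p = 0.667). This comparison too was added after the data were seen. Site 12, 13.8 kb past P1, was found only in Panc10.05 P2-α8, at 34.0 and 44.2. Site 11, 5.67 kb past P1, was in sgNC replicate 1 alone, at 20.4.

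The strongest peak of the window lay outside the gene. Site 14 (44447634 to 44448653), 13.5 kb past the gene's end and near LINC01430, a long non-coding RNA gene, was at percentiles 83.5 and 95.4 in Panc10.05 P1-α2 and at 99.6 and 99.5 in P2-α8. In rank it was peak 158 of 39111 and peak 164 of 33646 in the P2-α8 lists, with fold enrichments of 55.3 and 48.0. In BxPC3 it was at 55.7 and 36.4 with P1-α2 and at 61.6 in P2-α8 replicate 2, with no peak in replicate 1 and none in AsPC1. The P2-α8 values were the higher ones in Panc10.05, by −10.1 for P1-α2 minus P2-α8 (two-sided exact permutation p = 0.33), or −16.1 to −4.17 without 1 library. As at site 13, the comparison was added after the data were seen. Presence in at least 7 induced lists and no AsPC1 list was held by 4.84% of the 78070 regions, and at this locus by sites 9, 14 and 16.

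Further downstream, site 15, 26.5 kb past the end and inside LINC01620, another long non-coding RNA gene, was at 26.1 in Panc10.05 P1-α2 replicate 2 and at 81.3 and 81.9 in P2-α8. It was in no BxPC3 and no AsPC1 list. Site 16, 60.9 kb past the end, was present in 7 of the 8 induced lists at 12.4 to 31.9, missing from Panc10.05 P1-α2 replicate 1. Sites 17, 18 and 19 lay within SERINC3, a gene for a multipass membrane protein. Site 17 was in both Panc10.05 P2-α8 and both BxPC3 P1-α2 lists, at 4.09 to 36.2, site 18 in both Panc10.05 P2-α8 lists, at 24.1 and 53.4, and site 19 in those lists, at 33.9 and 50.7, and in Panc10.05 P1-α2 replicate 1, at 18.6. None of sites 15 to 19 had a peak in AsPC1.

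The sites common to both kinds of experiment lay at the flanks. Site 20, 246 bp past the start of PKIG, a gene for an inhibitor of protein kinase A, was in 12 lists and was the only site in all 6 AsPC1 pan lists, as were 26.4% of the 28217 AsPC1 regions. Its percentiles were 56.3 and 48.1 in sgNC, 30.6 and 58.0 in sgP1 and 60.7 and 62.6 in sgP2, and 64.0 in P1-antibody sgP2 replicate 1. The sgP2 lists thus kept a peak of middle rank at PKIG and ranked it above both sgNC lists, where 5.52% of the 9188 regions in all 4 of those lists were so ranked and 32.6% were ranked the other way. They also ranked it above both sgP1 lists, as they did 21.9% of 7771 regions, with 16.9% the other way. In the induced lines it was in Panc10.05 P2-α8 replicate 1, at 11.5, and in all 4 BxPC3 lists, at 70.5 and 10.7 with P1-α2 and at 26.0 and 0.920 with P2-α8. Site 4, at the start of FITM2, a gene of lipid droplet formation, was at 54.6 and 69.3 in 1 Panc10.05 list of each isoform (P1-α2 replicate 2 and P2-α8 replicate 1). In AsPC1 site 4 was at 30.0 in sgNC replicate 1, 5.42 and 3.36 in sgP1 and 9.65 in sgP2 replicate 2.

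The remaining upstream sites were few and low. Site 1, at the end of GDAP1L1, was at 26.2 and 47.5 in BxPC3 P1-α2 and at 16.9 in Panc10.05 P2-α8 replicate 1. Site 2, 73.4 kb upstream of P2, was in both BxPC3 P1-α2 lists only, at 2.13 and 7.16. Site 5, 3.46 kb upstream of P2 inside R3HDML-AS1, was in sgNC replicate 1 alone, at 35.4. Downstream the outermost summit inside the window was 97.6 kb from the gene, at percentile 0.920, and the next one outside 167 kb away, at 96.5. That inside summit belongs to site 20, which was in 12 lists at percentiles of up to 70.5. A slightly smaller window would therefore lose that site. Upstream the outermost summit inside was 75.1 kb away, at 47.5, and the next one outside 102 kb away, just past the edge, at 2.09.

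The isoforms differed in the number of locus peaks in opposite directions in the 2 induced lines. In Panc10.05 the P1-α2 lists had 4 and 7 member peaks and the P2-α8 lists 14 and 11, or 5.5 ± 2.12 against 12.5 ± 2.12 (SD, n = 2). In BxPC3 the P1-α2 lists had 9 and 8 and the P2-α8 lists 3 and 4, or 8.5 ± 0.707 against 3.5 ± 0.707 (SD, n = 2). The groups did not overlap in either line, and the differences of −7 and 5 had a two-sided exact permutation p of 0.33 each, 0.667 after Benjamini-Hochberg adjustment over 6 comparisons. List length moved with the count, without overlap in BxPC3 and with overlap in Panc10.05: 24828 and 34146 peaks against 39111 and 33646 in Panc10.05, and 41808 and 33737 against 12681 and 14666 in BxPC3. Per 10000 peaks the Panc10.05 values stayed apart, at 1.61 and 2.05 against 3.58 and 3.27. Those of BxPC3 overlapped, at 2.15 and 2.371 with P1-α2 against 2.366 and 2.73 with P2-α8, and only the order of their means turned (difference −0.285). With all lists of a line cut to the strongest peaks of the shortest list, the differences were −3 and −2, so the direction turned in BxPC3 and held in Panc10.05. Within 50 kb and 10 kb of the gene the differences were −3 and −2.5 in Panc10.05. In BxPC3 they were 1.5 (exact permutation p = 0.667) and 1 (exact p = 1), where the groups were no longer apart.

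By site, 4 of the 14 Panc10.05 regions (sites 7, 12, 17 and 18) were in both P2-α8 lists and neither P1-α2 list, a pattern held by 10.9% of 49247 regions genome-wide, and none showed the opposite pattern (3.64%). At the 3 regions in all 4 Panc10.05 lists (sites 9, 13 and 14) both P2-α8 percentiles were above both P1-α2 percentiles, as at 27.1% of 18736 such regions, with the opposite at 19.9%. In BxPC3, 3 of 10 regions (sites 1, 2 and 17) were in both P1-α2 lists only, beside 28.2% of 47225 regions, and none in both P2-α8 lists only (0.129%). Of its 3 regions in all 4 lists (sites 9, 16 and 20), site 16 had both P2-α8 percentiles, 31.9 and 31.7, above both P1-α2 percentiles, 18.9 and 18.5, where 3.97% of 8648 regions did, and none had the opposite order (46.2%). Site 17 thus fell on the P2-α8 side in Panc10.05, at percentiles 13.7 and 7.64, and on the P1-α2 side in BxPC3, at 4.09 and 36.2. Those are mostly low ranks, and the BxPC3 P2-α8 lists were much the shorter ones. No genome-wide share of regions with both patterns is given here, so no isoform preference is read from this site.

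In AsPC1 the pan lists had 6 and 3 member peaks in sgNC (4.5 ± 2.12), 4 and 4 in sgP1 (4 ± 0) and 1 and 3 in sgP2 (2 ± 1.41, SD, n = 2 each). The sgP1 and sgP2 counts did not overlap, with a difference of 2 (two-sided exact permutation p = 0.33, adjusted 0.667), while sgNC, whose replicates differed most, overlapped or touched both, with differences of −0.5 for sgP1 (exact p = 1) and −2.5 for sgP2 (exact p = 0.667). Without sgNC replicate 1 the sgP1 difference was 1 and the sgP2 difference −1. The difference between sgP1 and sgP2 was 1 and 0.5 at −log10 q of at least 5 and 8, and 1 and 0.5 within 50 and 10 kb. In all of these settings the sgP1 and sgP2 counts were no longer apart. With the P1 antibody neither sgNC list had a member peak, and the sgP2 lists had 1, at PKIG, and 0, a difference of 0.5 (exact p = 1). The PKIG region, the only one of the locus there, was thus in both lists of neither group, where 36% of 6274 regions were in both sgP2 lists only and 0.0638% in both sgNC lists only. Those lists were short, at 697 and 260 peaks in sgNC and 5200 and 3916 in sgP2, and a site below detection in them cannot be told apart from one without binding.

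**Figure D3:**
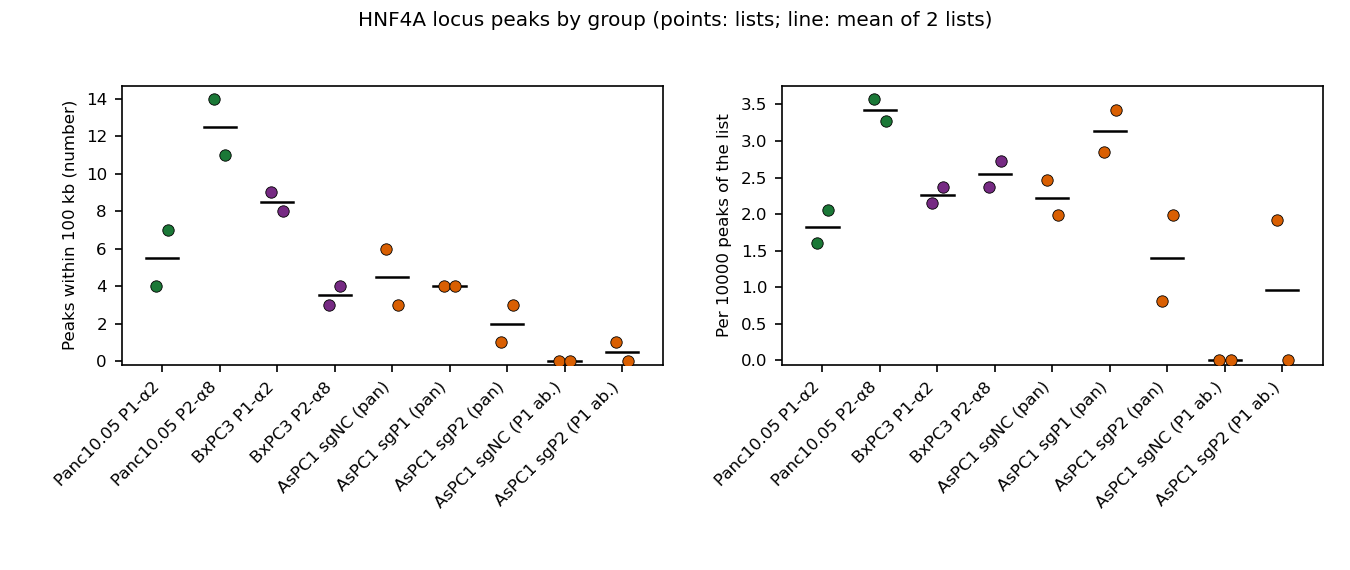
Number of HNF4A locus peaks in each list (left y axis) and the same per 10000 peaks of the list (right y axis) in the 9 groups (x axis), with 1 point per list and a line at the mean of 2 lists; pan and P1 ab. name the antibody. Panc10.05 P2-α8 has the highest mean in both panels, from 14 and 11 peaks and 3.58 and 3.27 per 10000. The order of the BxPC3 isoform means differs between the panels, and their points overlap in the right one.

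Peaks near a gene were common in these lists, and HNF4A was set against all 20037 protein-coding genes. Each window reached 100 kb beyond both ends of the gene, so longer genes had wider windows. Gene length, 78898 bp for HNF4A, was not matched here or for the network genes below. A summit within 100 kb in both lists was found for 85.5% of genes in Panc10.05 P1-α2, 88.2% in P2-α8, 88.3% in BxPC3 P1-α2, 61.5% in P2-α8, 72.2% in sgNC, 64.5% in sgP1 and 65.7% in sgP2, so having one, as HNF4A did in all 7 of these groups, is near the background. Its number of summits was above that of 90.8% and 88.2% of genes in Panc10.05 P2-α8, 54.8% and 69.5% in P1-α2, 80.0% and 83.1% in BxPC3 P1-α2 and 73.7% and 82.0% in P2-α8. In AsPC1 the shares were 71.3% and 61.4% in sgNC, 75.2% and 79.4% in sgP1 and 31.3% and 60.8% in sgP2. A peak within 1 kb of a start in both lists was rarer, at 11.3% of 22183 coding starts in sgNC and 8.25% in sgP1. P2 was among these in both groups, and P1 in sgNC. Neither start was among the 10.6% in Panc10.05 P1-α2, 14.9% in P2-α8, 7.09% in BxPC3 P1-α2, 2.07% in P2-α8 or 8.95% in sgP2, nor among the 0.0992% and 1.97% with the P1 antibody in sgNC and sgP2.

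Other factors of the same regulatory network were taken from a list of which 16 are reported: HNF4G, FOXA1, FOXA2, FOXA3, GATA4, GATA6, PDX1, ONECUT1, ONECUT2, NR5A2, NR0B2, CDX2, PROX1, NR1H4, PPARA and SOX9. A summit within 100 kb in both lists was found for 15 and 14 of 16 in Panc10.05 P1-α2 and P2-α8, for 16 and 12 in BxPC3, and for 11, 9 and 9 in sgNC, sgP1 and sgP2, beside the shares of all genes just given. With the P1 antibody it was 1 of 16 in sgNC and 6 of 16 in sgP2, beside 3.69% and 34.6% of all genes. The median number of summits per gene over the list was above that of all genes in 4 groups: 4 against 3.5 in Panc10.05 P1-α2, 5.25 against 4 in BxPC3 P1-α2, and 1.75 against 1.5 in BxPC3 P2-α8 and in sgP2. It was below in Panc10.05 P2-α8 (3.75 against 5), in sgNC (2.25 against 2.5) and in sgP1 (1.25 against 1.5). With the P1 antibody both medians were 0 in sgNC and in sgP2. HNF4A had a mean of 12.5 in Panc10.05 P2-α8 and 4.5 in sgNC. More summits than HNF4A were found near 1 of the 16 in Panc10.05 P2-α8, 3 in BxPC3 P1-α2, 2 in BxPC3 P2-α8, 4 in Panc10.05 P1-α2 and in sgP1, 5 in sgNC and 7 in sgP2. A peak at the gene's own start in both lists was found for PPARA, a lipid-sensing nuclear receptor, in Panc10.05 P2-α8 (1 of 16 genes, beside 13.1% of all genes). In sgNC it was found for PPARA and NR5A2, a receptor of the exocrine pancreas (2 of 16, beside 9.95%), and in sgP1 for GATA6, a zinc-finger factor of pancreatic epithelium (1 of 16, beside 7.33%). The other 6 groups had none, beside 9.39% of all genes in Panc10.05 P1-α2, 6.46% in BxPC3 P1-α2, 1.97% in BxPC3 P2-α8 and 7.96% in sgP2, and 0.0898% and 1.77% with the P1 antibody in sgNC and sgP2.

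Some network genes had no summit within 100 kb in either list of a group. In Panc10.05 P2-α8 this was PROX1 (7.90% of all genes had none), and in BxPC3 P2-α8 PROX1 and NR1H4, the bile acid receptor (24.3%). In sgNC it was FOXA2 and ONECUT1, a forkhead and a cut-homeobox factor of endoderm (16.8%). In sgP1 FOXA1, FOXA3, ONECUT1 and SOX9, a duct factor, had none (25.0%), and in sgP2 FOXA1, FOXA2, ONECUT1, PROX1 and SOX9 (23.8%). No network gene lacked a summit in the P1-α2 groups of Panc10.05 and BxPC3 (8.89% and 6.67%), and with the P1 antibody 14 of 16 did in sgNC (89.0%) and 9 of 16 in sgP2 (50.1%).

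**Figure D4:**
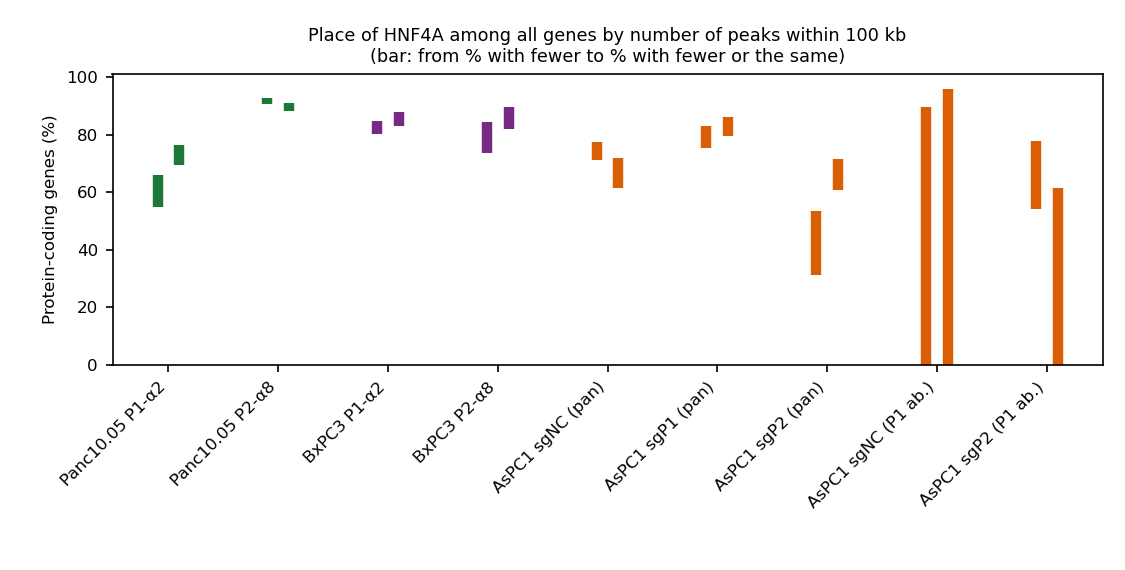
Share of the 20037 protein-coding genes with fewer peaks within 100 kb than HNF4A (bottom of each bar, y axis in %) and with fewer or the same number (top of the bar), with 1 bar per list in the 9 groups (x axis); pan and P1 ab. name the antibody. The Panc10.05 P2-α8 bars begin highest, at 90.8% and 88.2%, and bars that begin at 0 are lists with no HNF4A locus peak.

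Regions elsewhere whose pattern was most like that of the P2 site were ranked by Euclidean distance between percentiles over the 18 lists, absence counted as 0, among 78729 merged regions. The nearest lay 58.6 kb from ALB, the serum albumin gene (chromosome 4, 73345465 to 73345988, distance 29.2), followed by regions named by the nearest coding genes PDS5B (40.0), LYZL4 (40.8), BMP7 (42.6) and YPEL5 (44.1). The ALB region was at percentiles 81.1 and 82.2 in sgNC and 76.6 and 80.3 in sgP1, and also at 24.0 in sgP2 replicate 2, whereas 111 regions had exactly the presence of the P2 site. For the P1 site the nearest regions were named by AOPEP (2.78), DAZAP1 (5.79), ASB1 (6.76), CBR1 (6.81) and CYP1A1 (6.82), and 154 regions had its presence. These distances are descriptions over lists that share lines and libraries.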

How the data were processed

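ChIP-seq peak lists of 18 antibody libraries were used, 1 file per library, and 14 input libraries without antibody were not used. Per the submitters' processing notes, Bowtie2 2.2.9, MACS2 2.2.7 and the builds hg38 and mm10 were used, with no role given for either build; the peaks' coordinates were read as hg38 because the samples are human, and their RefSeq neighbours come from GRCh38.p14. In the deposited lists each peak has a score, a fold enrichment (a linear ratio) and a −log10 p-value and −log10 q-value, which the authors made for each library separately. Read depth is not given in the sources used here, so no interval for reads can be given.

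Summits (peak start plus offset) within 100 kb of HNF4A were kept, peaks overlapping by at least 1 bp over the 18 lists were merged, and each peak's percentile by fold enrichment was taken within its list. Groups of 2 lists were compared by two-sided exact permutation tests of mean peak number and percentile, the former adjusted by Benjamini-Hochberg over 6 comparisons. A background share over all merged regions or all genes was computed the same way. Merging was tested on simulated peaks. Sites, rules and the list of network genes were chosen with earlier results of these data known. HNF4A, its neighbours in the window, the 5 regions nearest in pattern to each promoter site, and network genes with no peak in a group were named by rule; genes with a peak at their own start were named after their values were seen. Some members of that list are not reported here. No cell type markers apply to peak lists of cell lines. Replicate numbers were not taken to pair libraries, since deviations of same-numbered lists correlated at −0.0674 to 0.0680. Alternatives were windows of 50 and 10 kb, thresholds on q, ranking by −log10 p, lists cut to equal length, absent lists left out, a replicate block and leaving out each library, and, chosen after seeing the data, a window of 200 kb. Python 3.11.15, numpy 2.4.6, pandas 2.3.3, scipy 1.17.1 and matplotlib 3.10.9 were used.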

Additional observations from a re-analysis of the deposited data

Results flagged for a closer look

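The difference in HNF4A locus peaks between P1-α2 and P2-α8 differed between the induced lines by −12 peaks (−7 in Panc10.05 and 5 in BxPC3), with an exact two-sided permutation p of 0.0556, the smallest that the 36 labellings within lines allow. Every P2-α8 list had more locus peaks than every P1-α2 list in Panc10.05 and fewer in BxPC3, and list length moved the same way in BxPC3. With lists cut to equal length within each line the difference was −1 (exact permutation p = 0.889), with all 8 lists cut to 1 length −1 (0.556), and per 10000 peaks −1.31 (0.278). In windows of 50 and 10 kb it was −4.5 and −3.5. The comparison between the lines and its alternatives were chosen after seeing the data, so the p of 0.0556 is not that of a planned permutation test. With the groups apart in opposite directions in the lines, that p could only be the smallest possible.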

How the results depend on the processing

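Of 171 values under alternatives, 156 kept their direction, 11 went to 0 and 4 reversed. Part of the 156 could not have changed. A replicate block alters only the p-value, and at the P2 site sgP2 had no peak under any setting. The tally is therefore not a measure of stability. Neither a comparison of 2 against 2 libraries nor that between the lines could pass 0.05, so the side of that threshold was fixed in advance. With lists cut to equal length, the BxPC3 difference in locus peaks reversed to −2, sgP1 minus sgNC became 1, the P1-antibody difference became 0, and the P1 promoter site left all AsPC1 lists, so its 3 differences became 0. Those lists then hold fewer, stronger peaks. At −log10 q of at least 20, sgP1 minus sgP2 and the P1-antibody difference were 0, as the latter was in windows of 50 and 10 kb, and at a minimum of 8 the P1 site's sgP1 minus sgP2 was 0. Leaving out 1 library gave differences in locus peaks between −8.5 and −5.5 for Panc10.05, between 4.5 and 5.5 for BxPC3, −2 to 1 for sgP1 minus sgNC, −4 to −1 for sgP2 minus sgNC, 1 to 3 for sgP1 minus sgP2, 0 to 1 for the P1 antibody and −13.5 to −10.5 between the lines. It gave −6.09 to 0 for sgP1 minus sgP2 at the P1 site, and −23.3 to 19.5 for the HNF4A-AS1 site in BxPC3, the latter without P1-α2 replicate 1. With a replicate block the Panc10.05 and BxPC3 differences stayed at −7 and 5 by construction, with an exact p of 0.5 each, the smallest that 2 pairs allow. Leaving out absent lists gave no value where a whole group lacked the peak. Depth is unknown, so an absent peak may lie below the calling threshold.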
